A study of Sus scrofa with 6 samples.

Results

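Chemokines are small secreted proteins that steer migrating leukocytes, and they act through receptors that couple to G proteins. Described here are 22 chemokine system genes, 15 ligands and 7 receptors, out of 4122 genes in the tables. They were taken by symbol (CCL, CXCL, CX3CL, XCL, CCR, CXCR, CX3CR or XCR followed by a digit), which finds 33 genes, and 11 of those were left out by name (CCL5, CCL17, CCL19, CCL22, CCL25, CCR9, CXCL9, CXCL11, CXCR6, XCL1 and XCR1). The rule uses no measured value. The design compares RAG2 biallelic knockout pigs, for which the series title names the loss of one amino acid, with wild-type littermates, all sampled at 3 months of age. Lymph node, spleen and thymus gave 1 RNA sequencing library per tissue and genotype, 6 in all. How many animals were sampled, and whether the tissues of a genotype came from the same animal, is not given in the sources used here. RAG2 is part of the recombinase that cuts antigen receptor genes so that T and B cells can mature.

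Homeostatic chemokines are made constantly by stromal and endothelial cells and set up the architecture of lymphoid organs. CCL21 draws CCR7-bearing T cells and dendritic cells into T-cell areas, and CXCL12 holds CXCR4-bearing progenitors and lymphocytes in place. Inflammatory chemokines are switched on by cytokines or microbial products and recruit neutrophils, monocytes and activated lymphocytes. In the thymus, CCR7 guides maturing thymocytes into the medulla.

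Because each tissue and genotype has 1 library, no difference has a replicate check and no p-value is given. Fragments assigned to listed genes numbered 1922562 to 2541724 per library, of which the chemokine system genes took 0.256 to 0.418%. Levels are in FPKM, which corrects fragments for transcript length and library size, from tables normalised separately for each tissue, so levels set across tissues are only side by side. The thymus label fits its markers: the summed level of 6 thymocyte genes was 6407 FPKM in wild-type thymus against 207 in lymph node and 45.0 in spleen. The summed level of 9 T-cell genes in wild type and knockout was 1951 and 233 FPKM in lymph node, 772 and 408 in spleen, and 10079 and 5204 in thymus. For 4 B-cell genes the sums were 1493 and 4.50 FPKM in lymph node, 496 and 6.63 in spleen, and 149.7 and 185 in thymus. For 4 neutrophil genes they were 12.6 and 591, 39.4 and 1743, and 118 and 2085 in the same order. The 5 adipocyte genes summed to 106 and 8754 FPKM in lymph node, 27.0 and 14.2 in spleen, and 457 and 1710 in thymus. The 7 natural killer and cytotoxic genes summed to 113 and 483, 239 and 1251, and 38.2 and 117 FPKM. Of these sums NKL alone held 13.1 and 299, 87.5 and 909, and 2.09 and 36.7 FPKM. The genes did not all rise: GZMK was lower in the knockout spleen, at 6.74 and 1.22 FPKM, and NCR1 was listed at 0 in every library. The red cell gene HBB stood at 376 and 6738 FPKM in lymph node, 41406 and 18970 in spleen, and 912 and 4782 in thymus. The part of these cell type differences in the results below was not tested, and in bulk tissue fewer cells of a type and less RNA per cell cannot be told apart.

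A gene was measured in a tissue when it reached 1 FPKM in at least 1 of its 2 libraries. It was called when log2 of the knockout level over the wild-type level, after adding 1 FPKM to both, was 1 or more, or -1 or less. In lymph node 19 of the 22 genes were measured, 4 of them higher (21.1%; 15.3% of all 2910 measured genes were) and 3 lower (15.8%, against 10.3%). In spleen 7 of 20 were higher (35%; 8.88% of all 2849 measured genes were) and 6 lower (30%, against 10%). In thymus 7 of 19 were higher (36.8%; 15.2% of all 2908 measured genes were) and 7 lower (36.8%, against 10.9%). The called share thus lay near that of all genes in lymph node and above it, in both directions, in spleen and thymus. The medians stayed close to 0, at -0.19 in lymph node, 0.01 in spleen and -0.03 in thymus, beside -0.005, -0.016 and -4.7e-05 for all measured genes. With genes at 0 in one library placed at the bound described below, the medians were -0.07, 0.0 and 0.0.

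**Figure D1:**
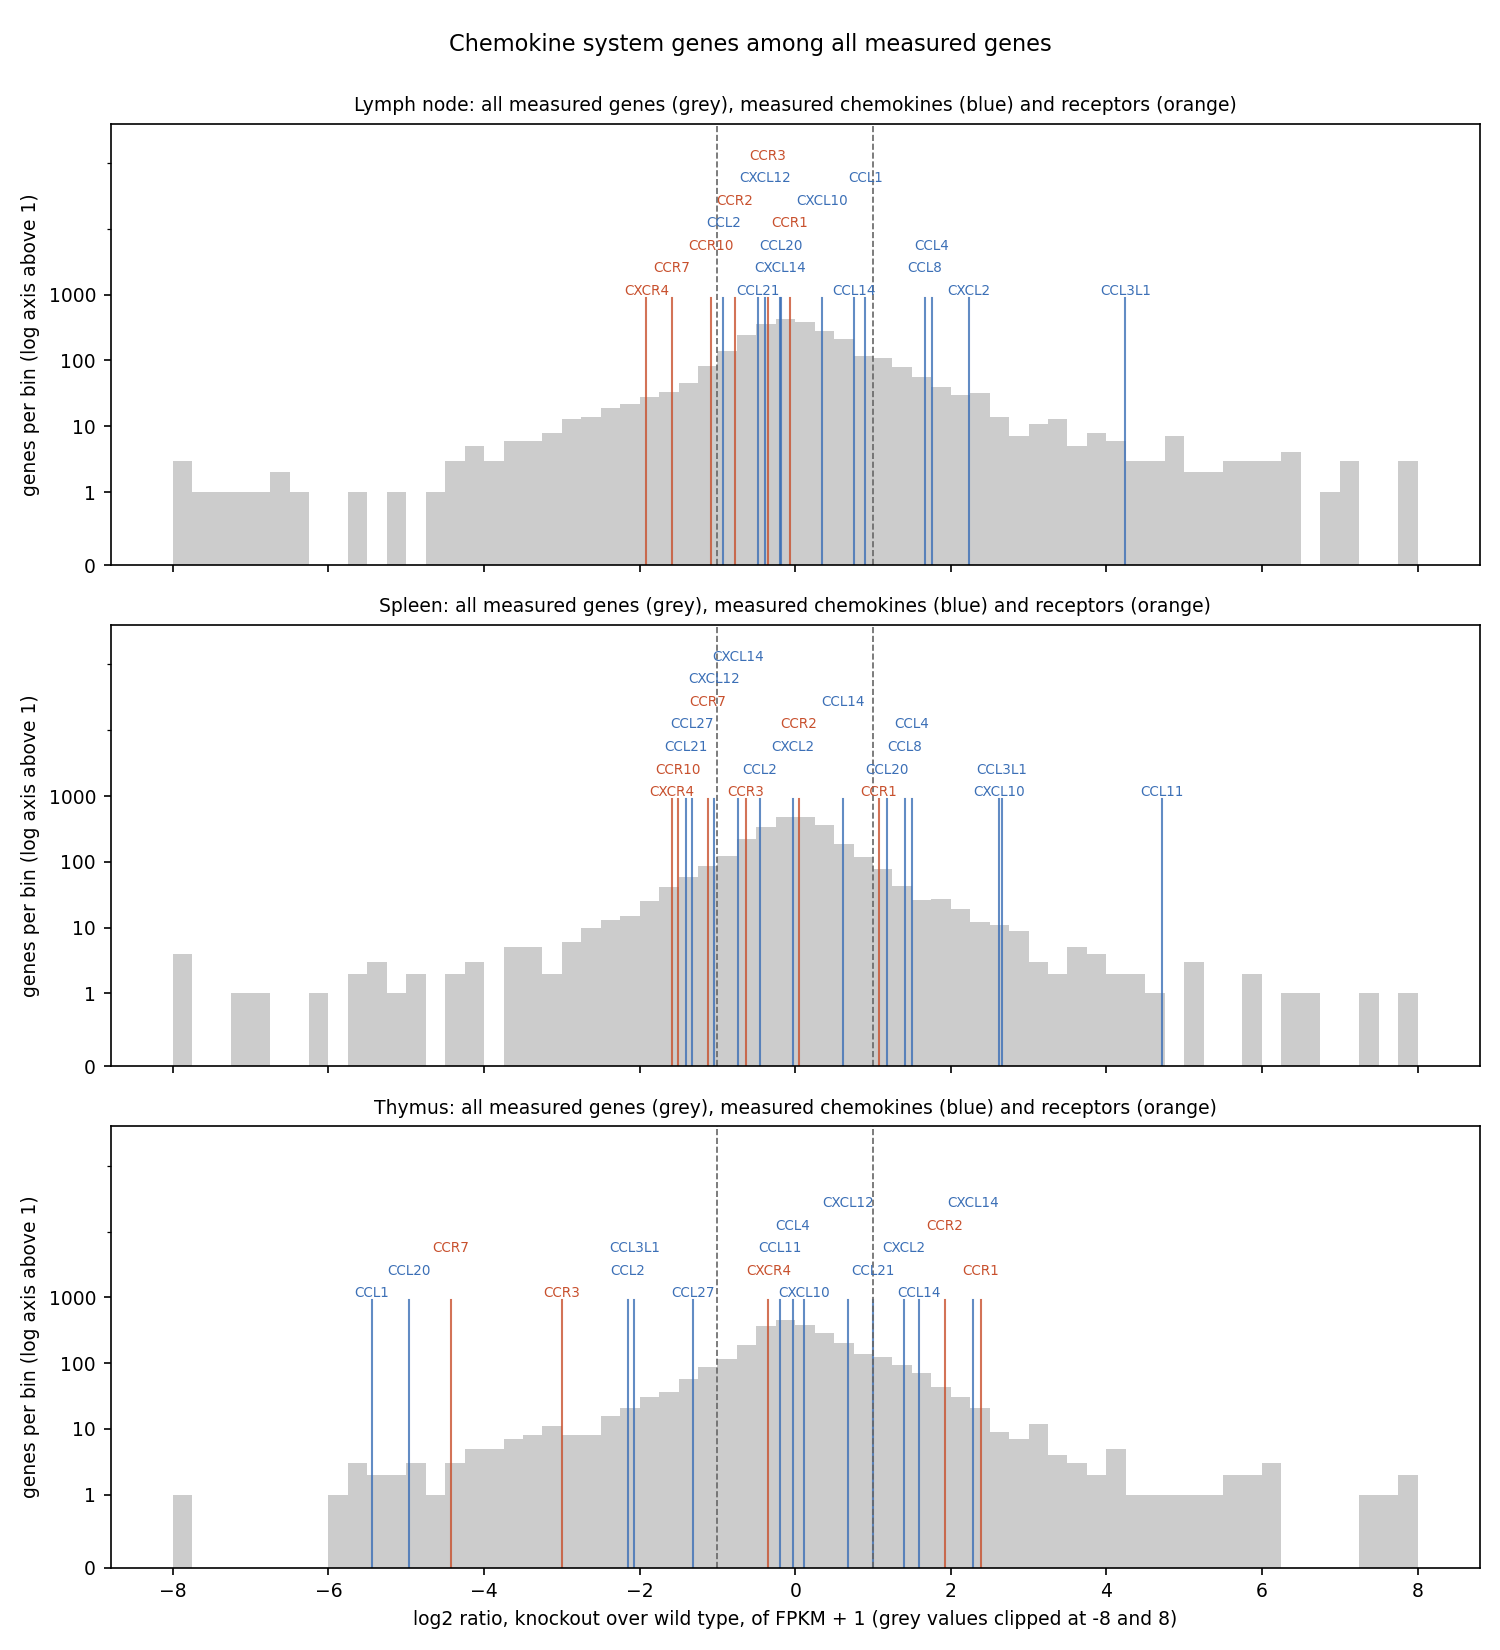
Each panel shows, for 1 tissue, how many measured genes (grey, log axis above 1) fall in each bin of the log2 ratio (knockout over wild type), with a labelled line for each measured chemokine (blue) and for the measured receptors described (orange); dashed lines mark -1 and 1. In thymus the lines reach from -5.44 (CCL1) to 2.39 (CCR1), while in lymph node the lowest is CXCR4 at -1.91.

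Of these calls, 3 in lymph node (CCL3L1, CCL8, CCR10), 4 in spleen (CCL20, CCL27, CCL8, CCR10) and 3 in thymus (CCL21, CCL27, CCL3L1) rest on fewer than 10 fragments in both libraries and get no fold. Each fold compares the scaled fragment counts of a pair of libraries. The range beside it is the 95% exact binomial (Clopper-Pearson) interval and covers no error beyond counting, since the fragments carry no molecular identifiers. A gene at 0 fragments in one library has a lower bound against 3 fragments per library. For those of the 22 genes with fragments in both libraries, FPKM and fragment ratios differed by at most 0.11 on the log2 scale (CCL3L1 in spleen).

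CXCL12, which retains cells that bear CXCR4, ranked first or next to first among the 15 ligands in every library. It stood at 2319.7, 2118 and 430.0 FPKM in wild-type lymph node, spleen and thymus and at 1774, 1024 and 687 FPKM in the knockout. It was thus lower in the knockout lymph node (1.28-fold, 1.19 to 1.37) and spleen (2.0-fold, 1.85 to 2.16) and higher in the knockout thymus (1.60-fold, 1.39 to 1.83). Only the spleen difference was called, and with DESeq2 size factors its log2 ratio of -1.05 became -0.99, short of a call. In spleen all 5 fibroblast genes were lower too, with a summed level of 4979 FPKM in wild type and 1833 in the knockout. In lymph node 1 of the 5 was higher and 1 lower (median log2 ratio 0.55, sums 4823 and 6731 FPKM), and likewise in thymus (median -0.42, sums 1823 and 2126 FPKM).

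CCL21, the CCR7 ligand of lymphatic endothelium and T-zone stroma, led the 15 ligands in the wild-type lymph node. Its levels in lymph node, spleen and thymus were 2438, 336 and 5.08 FPKM in wild type and 1754, 126 and 11.2 FPKM in the knockout. The knockout spleen was 2.56-fold lower (2.05 to 3.21), and the knockout lymph node 1.36-fold lower (1.27 to 1.46). In thymus, on 4 and 9 fragments, the log2 ratio of 1.0004 lies at the threshold; with a pseudocount of 5 FPKM it was 0.68. The lymphatic marker PROX1 stood at 31.8 and 80.2 FPKM in wild-type and knockout lymph node and at 5.24 and 9.36 FPKM in spleen. Of the 5 fibroblast genes given above, all were lower in spleen, and 1 was higher and 1 lower in lymph node. The part of either cell source in the CCL21 differences was not tested.

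CXCL14, made by epithelium and stroma, had its largest difference in thymus. It measured 203 and 177 FPKM in wild-type and knockout lymph node, 18.4 and 10.7 FPKM in spleen, and 41.3 and 205 FPKM in thymus. The knockout thymus was thus 4.96-fold higher (4.25 to 5.81), whereas the knockout lymph node and spleen were 1.14-fold (1.04 to 1.26) and 1.71-fold (1.21 to 2.43) lower. Of the epithelial markers matched in thymus, EPCAM stood at 196 and 242 FPKM in wild type and knockout (1.23-fold higher, 1.12 to 1.36) and KRT8 at 851 and 507 FPKM (a ratio of 0.595, 0.566 to 0.626), and neither was called. CCL14, a plasma chemokine that acts on CCR1, was at 65.8, 8.69 and 5.96 FPKM in wild-type lymph node, spleen and thymus and at 112, 13.8 and 19.9 FPKM in the knockout. All 3 knockout libraries were above their wild type, and the thymus alone was called, at 3.35-fold (1.40 to 9.20, 7 and 24 fragments). The lymph node ratio was 1.73 (1.29 to 2.33). The spleen ratio was 1.63 (0.720 to 3.92, 10 and 19 fragments), with an interval that includes equal levels.

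**Figure D2:**
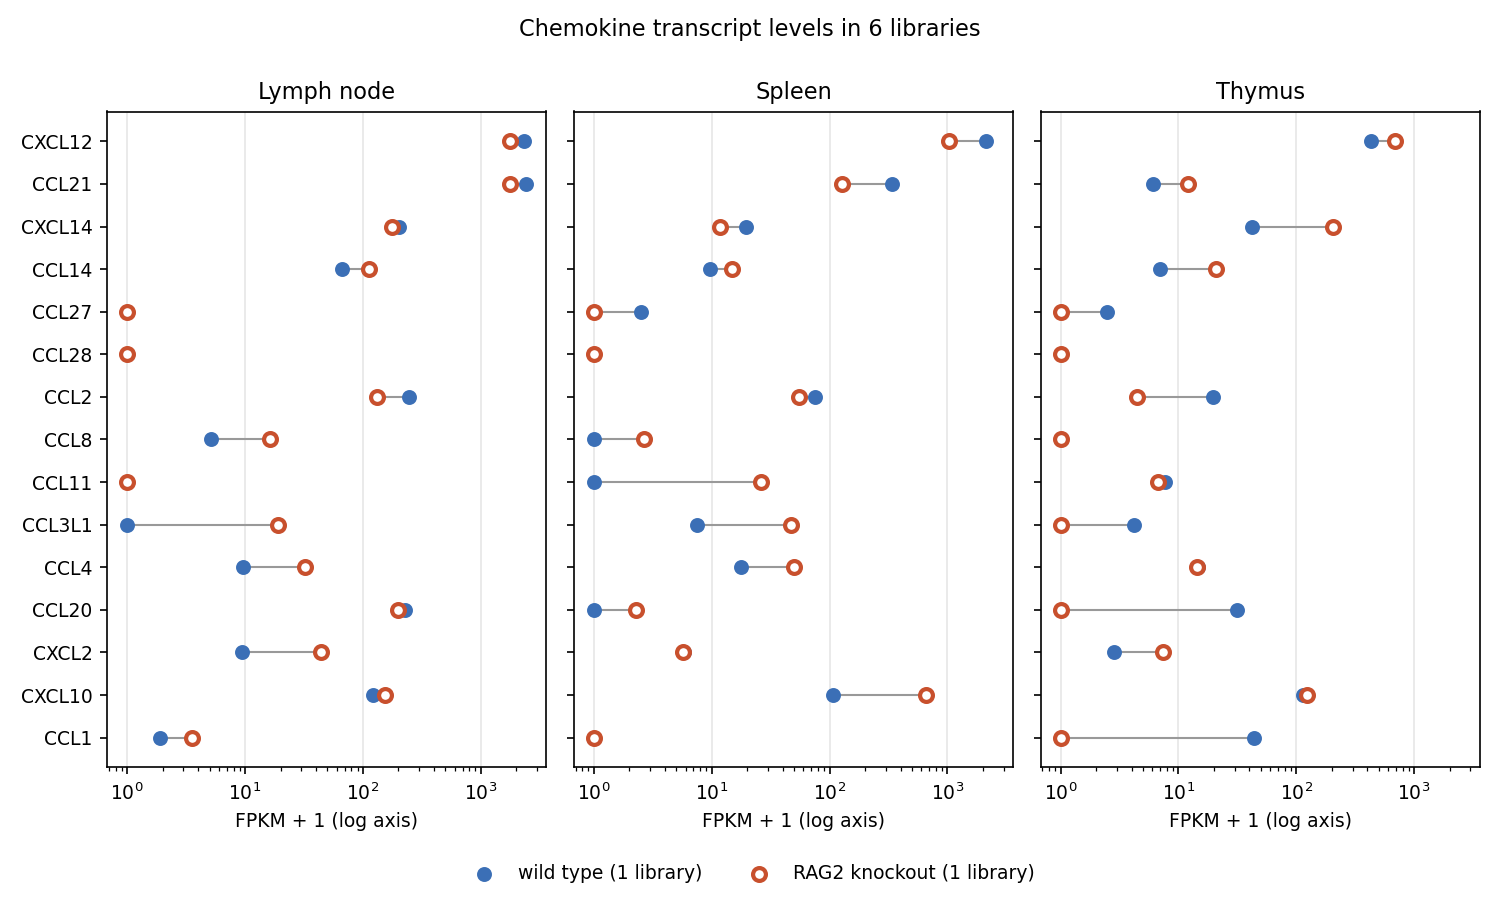
Levels of 15 chemokines as FPKM + 1 on a log axis, for 1 wild-type library (filled blue) and 1 knockout library (open orange) per tissue, joined by a grey line; where the points coincide the open one covers the other. CXCL12 and CCL21 lie far right in lymph node, CXCL10 and CCL11 move right in the knockout spleen, and CCL1 and CCL20 reach 0 FPKM in the knockout thymus.

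Both homeostatic receptors were lower in the knockout lymph node and spleen. CXCR4, carried by most thymocytes, lymphocytes and progenitors, stood at 453, 248 and 2111 FPKM in wild-type lymph node, spleen and thymus and at 119.8, 82.1 and 1661 FPKM in the knockout. It was 3.76-fold lower in lymph node (3.32 to 4.26) and 2.99-fold lower in spleen (2.58 to 3.47). In thymus the difference was 1.27-fold (1.22 to 1.32), so the receptor stayed the most abundant of the 7 there. In the same thymus libraries the T-cell sum was below wild type in the knockout, and the 6 thymocyte genes were split. RAG-1, at 3435 and 7134 FPKM in wild type and knockout, carried most of their sums of 6407 and 8890 FPKM, and PTCRA was higher too. The transcript of RAG2 itself stood at 606 and 1072 FPKM, a ratio of 1.77 (1.69 to 1.86), short of a call. CD8A (534 and 11.4 FPKM), CD8B (1118 and 41.3 FPKM) and CD4 (412 and 19.5 FPKM) were lower, and the median log2 ratio of the 6 genes was -1.76.

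CCR7 was the only receptor called lower in all 3 tissues. It was at 134, 28.5 and 57.3 FPKM in wild-type lymph node, spleen and thymus and at 43.9, 12.5 and 1.71 FPKM in the knockout. The differences were 3.04-fold (2.63 to 3.53), 2.26-fold (1.72 to 2.99) and 33.5-fold (18.0 to 70.5, from 327 to 10 fragments). With a pseudocount of 5 FPKM the spleen log2 ratio of -1.13 became -0.93. FSCN1, the one dendritic cell marker matched and a gene of mature dendritic cells, stood at 47.9 and 57.9 FPKM in lymph node, 29.8 and 89.6 in spleen, and 31.6 and 5.06 in thymus. It was thus lower with CCR7 in thymus and higher or little different in the other tissues.

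**Figure D3:**
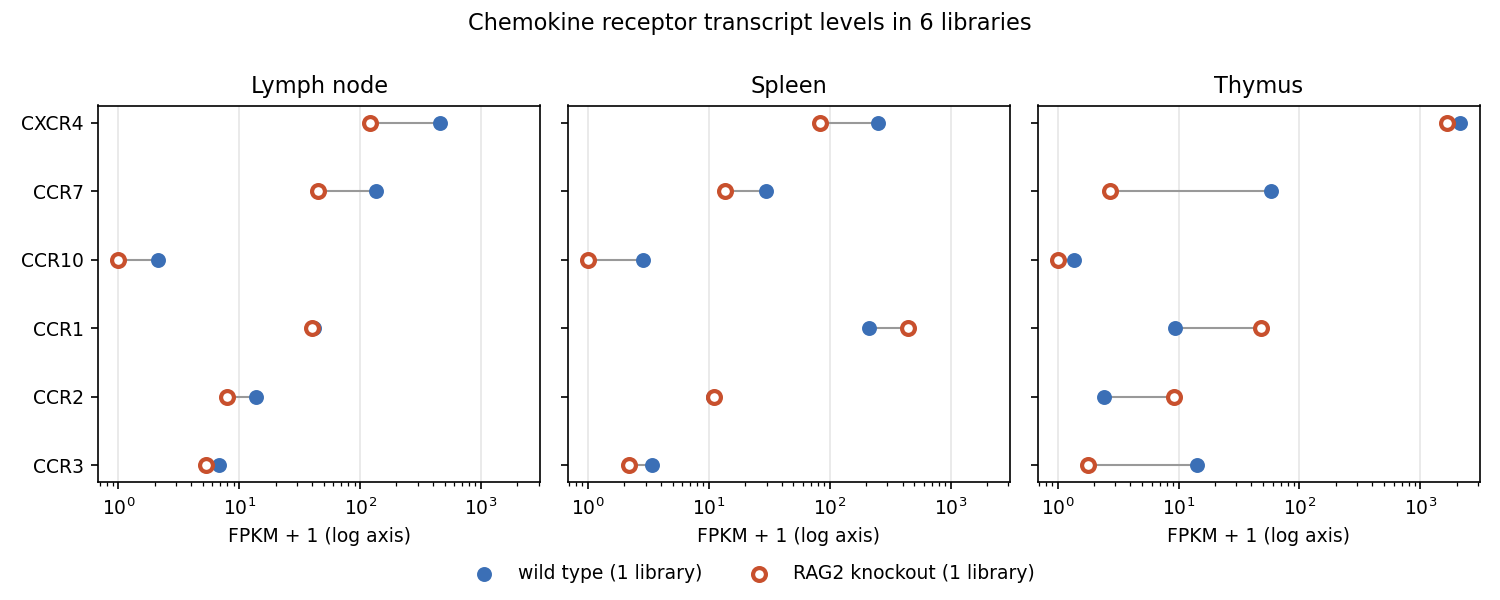
Levels of 6 chemokine receptors as FPKM + 1 on a log axis, drawn for 1 wild-type (filled blue) and 1 knockout (open orange) library per tissue. CXCR4 and CCR7 lie left of wild type in each knockout library, and in thymus CCR1 and CCR2 lie to the right.

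The receptors CCR1 and CCR2, carried by monocytes, macrophages and some lymphocytes, were both called higher in the knockout thymus. CCR1 measured 40.8, 211 and 8.27 FPKM in wild-type lymph node, spleen and thymus and 38.8, 444 and 47.5 FPKM in the knockout. It was 5.72-fold higher in thymus (4.43 to 7.48), 2.11-fold higher in spleen (2.0 to 2.24) and at a ratio of 0.954 (0.816 to 1.12) in lymph node. CCR1 took 75.5% of the summed FPKM of the 7 receptors in the knockout spleen, where CXCR4 led in wild type with 46.9%.

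CCR2, the receptor that brings monocytes out of the marrow, was at 12.6, 9.73 and 1.43 FPKM in wild-type lymph node, spleen and thymus and at 6.98, 10.1 and 8.20 FPKM in the knockout. The knockout lymph node was 1.81-fold lower (1.23 to 2.68) and the knockout thymus 5.75-fold higher (2.81 to 13.3, from 9 to 53 fragments).

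The macrophage markers were mostly higher with these receptors in thymus. In lymph node they were higher or not called, while CCR1 was little different and CCR2 lower. Of 5 measured macrophage genes 3 were higher and 1 lower in thymus. Lymph node had 3 higher and 0 lower, and spleen 2 higher and 2 lower. Among all measured genes 15.2, 15.3 and 8.88% were higher in thymus, lymph node and spleen, and 10.9, 10.3 and 10% lower. CD163 was listed at 0 in every library. The summed level of the 6 matched genes was 87.1 and 367 FPKM in wild-type and knockout thymus, 1299 and 2855 in lymph node, and 557 and 351 in spleen.

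CCR3, the eosinophil receptor, went the other way in thymus. Its levels were 5.78, 2.41 and 13.2 FPKM in wild-type lymph node, spleen and thymus and 4.33, 1.20 and 0.767 FPKM in the knockout. The knockout thymus was 17.2-fold lower (6.40 to 64.8, from 67 to 4 fragments). The lymph node had 28 and 22 fragments and the spleen 12 and 7, with intervals that include equal levels.

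CXCL10, an interferon-induced ligand of activated T and natural killer cells, had the most fragments of the inflammatory chemokines in spleen and thymus. It stood at 121, 107 and 112 FPKM in wild-type lymph node, spleen and thymus and at 154, 659 and 121 FPKM in the knockout. The knockout spleen was 6.24-fold higher (5.54 to 7.06, from 305 to 2224 fragments). Lymph node was 1.28-fold higher (1.11 to 1.48), short of a call, and in thymus the ratio was 1.08 (0.931 to 1.26).

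CXCL2, a neutrophil attractant, measured 8.44, 4.86 and 1.83 FPKM in wild-type lymph node, spleen and thymus and 43.4, 4.76 and 6.43 FPKM in the knockout. It was 5.17-fold higher in lymph node (3.26 to 8.57) and 3.51-fold higher in thymus (1.26 to 12.1, 5 and 18 fragments), while spleen had a ratio of 0.988 (0.439 to 2.26). With a pseudocount of 5 FPKM the thymus log2 ratio of 1.39 became 0.74. All 4 neutrophil markers were higher in all 3 knockout tissues. Among all measured genes 15.3, 8.88 and 15.2% were higher in lymph node, spleen and thymus. A link between these markers and CXCL2 was not tested. The related neutrophil attractant IL8 (CXCL8) was higher in lymph node, at 2.88 and 18.4 FPKM, and in spleen, at 0 and 6.72 FPKM, and stood at 7.73 and 8.28 FPKM in thymus.

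CCL3L1 and CCL4 are neighbouring genes of inflammatory chemokines, and both were called higher in lymph node and spleen. CCL4 was at 8.56, 16.9 and 13.8 FPKM in wild-type lymph node, spleen and thymus and at 31.2, 49.4 and 13.5 FPKM in the knockout. Its ratios were 3.83-fold (1.03 to 21.1, 3 and 12 fragments) in lymph node and 3.14-fold (1.23 to 9.47, 6 and 22 fragments) in spleen, and thymus had 5 fragments in each library. CCL3L1 had 0 and 6 fragments in lymph node, 2 and 18 in spleen and 1 and 0 in thymus. In spleen that is 7.71-fold higher (1.85 to 68.5), at 6.51 and 46.4 FPKM. Reads from these similar genes could have been divided between them in counting, so each value is uncertain.

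CCL20, which attracts CCR6-bearing lymphocytes and dendritic cells, had its highest levels in lymph node. It stood at 226 and 198 FPKM in wild-type and knockout lymph node, a ratio of 0.903 (0.709 to 1.15). In spleen it had 0 and 1 fragments. In thymus it was at 30.3 FPKM in wild type and at 0 in the knockout, at least 6.83-fold lower (20 and 0 fragments). CCL1, a ligand made by activated T cells, showed the same contrast in thymus. It was at 42.5 FPKM in the wild-type thymus and at 0 in the knockout, at least 16.7-fold lower (49 and 0 fragments), with 1 and 3 fragments in lymph node and 0 in both spleen libraries. CCR6 and CCR8, the receptors of CCL20 and CCL1, were not among the 33 genes found by symbol.

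CCL2, the main monocyte attractant, was lower in each knockout library. Its levels were 247, 74.7 and 18.7 FPKM in wild-type lymph node, spleen and thymus and 129.8, 54.4 and 3.43 FPKM in the knockout. The differences were 1.89-fold (1.60 to 2.23), 1.35-fold (1.04 to 1.77) and 5.46-fold (2.25 to 16.0, from 32 to 6 fragments). Only the thymus was called, and the lymph node log2 ratio of -0.93 lay just under the threshold.

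CCL11, the eosinophil attractant eotaxin, stood at 0 and 25.2 FPKM in wild-type and knockout spleen, at least 9.99-fold higher (0 and 35 fragments). It was at 0 in both lymph node libraries and had 8 and 7 fragments in thymus. CCL8, a relative of CCL2, had 2 and 8 fragments in lymph node, 0 and 1 in spleen and 0 in both thymus libraries.

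The mucosal and skin group was near the floor. CCR10, the receptor of CCL27 and CCL28 on plasma cells and skin-homing T cells, had 3, 5 and 1 fragments in wild-type lymph node, spleen and thymus and 0 in each knockout library. CCL27 had 1 fragment in wild-type spleen, 1 in wild-type thymus and 0 in the other 4 libraries. CCL28 was listed at 0 in all 6. RAC1, a gene that nearly every cell uses, was also listed at 0 in all 6 libraries, so a gene at 0 in all of them is only listed at 0 here. Where a library of the same tissue had fragments, a count of 0 allows up to 3, and these few fragments are below what this depth can compare.

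Set against one another, CXCL12 had the largest share of the 15 ligands in every library but the wild-type lymph node. CXCL12 and CCL21 together took 84.3 and 80.0% of the summed ligand FPKM in wild-type and knockout lymph node, 91.2 and 57.0% in spleen, and 61.0 and 65.0% in thymus. CCL21 made up 0.712 and 1.04% in wild-type and knockout thymus, and in the knockout spleen its 6.27% lay behind CXCL10. In spleen CXCL10 made up 3.96 and 32.7% of the sum in wild type and knockout. In thymus CXCL14 made up 5.80% in wild type and 19.1% in the knockout, while CCL1, CCL20 and CCL2 went from 5.96, 4.26 and 2.62% to 0, 0 and 0.319%. The summed ligand level was 5643 and 4410 FPKM in lymph node, 2692 and 2017 in spleen, and 713 and 1073 in thymus.

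**Figure D4:**
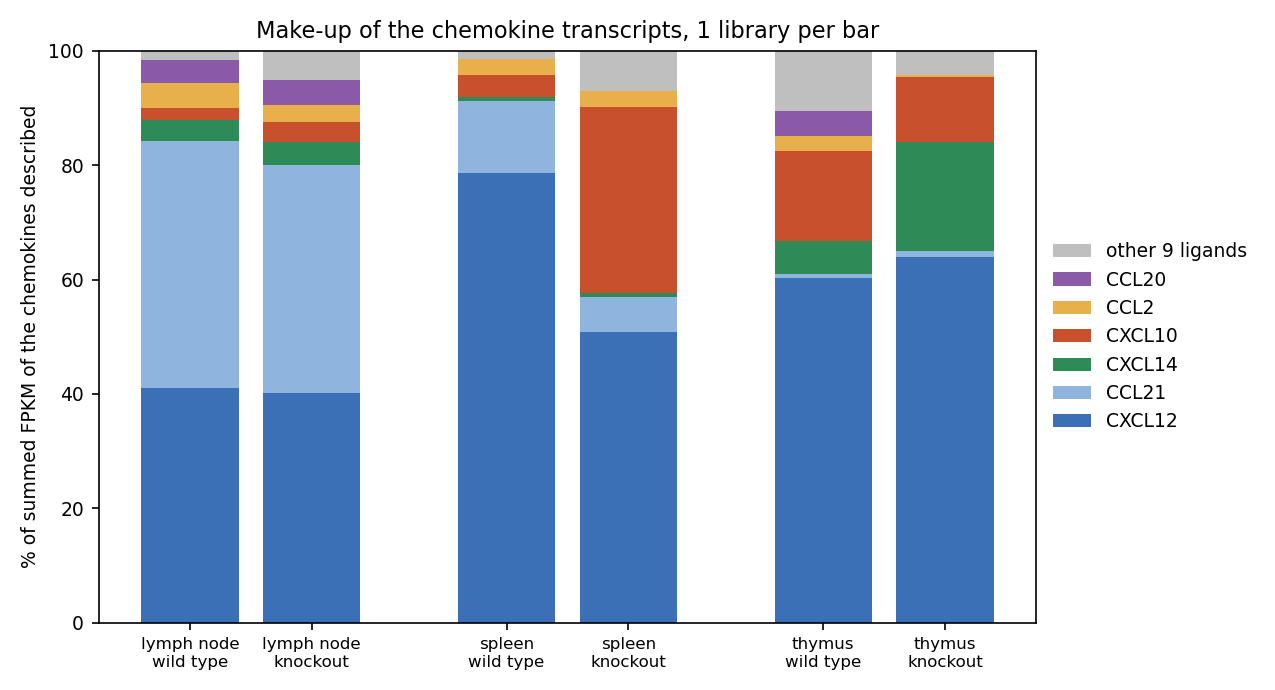
Share of each chemokine in the summed FPKM of 15 chemokines, 1 stacked bar per library. CXCL10 occupies 3.96% of the wild-type and 32.7% of the knockout spleen bar, and CXCL14 5.80% and 19.1% of the thymus bars.

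Ligand and receptor differed by unlike amounts in some pairs and tissues and by similar amounts in others. Pairs with the ligands CCL8, CCL3L1, CCL27 and CCL28, which had few or no fragments, are left out here. For CXCL12 and CXCR4 the log2 ratios were -0.39 and -1.91 in lymph node, -1.05 and -1.58 in spleen, and 0.67 and -0.35 in thymus. For CCL21 and CCR7 they were -0.47 and -1.59, -1.40 and -1.13, and 1.0 and -4.43. Both receptors were thus further below wild type than their ligand in lymph node, and in thymus both pairs had opposite signs, with CCL21 on 4 and 9 fragments. CCL2 and CCR2 parted in thymus, at -2.16 and 1.92, and were both lower in lymph node, at -0.93 and -0.77. For CCL11 and CCR3 in spleen, the ligand was at 0 in wild type, so its log2 ratio of 4.71 depends on the pseudocount, and the receptor's interval included equal levels. CCL14 and CCR1 were both above 0 in spleen and thymus, though the spleen interval of CCL14 included equal levels. These differences between a ligand and its receptor were not tested.

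**Figure D5:**
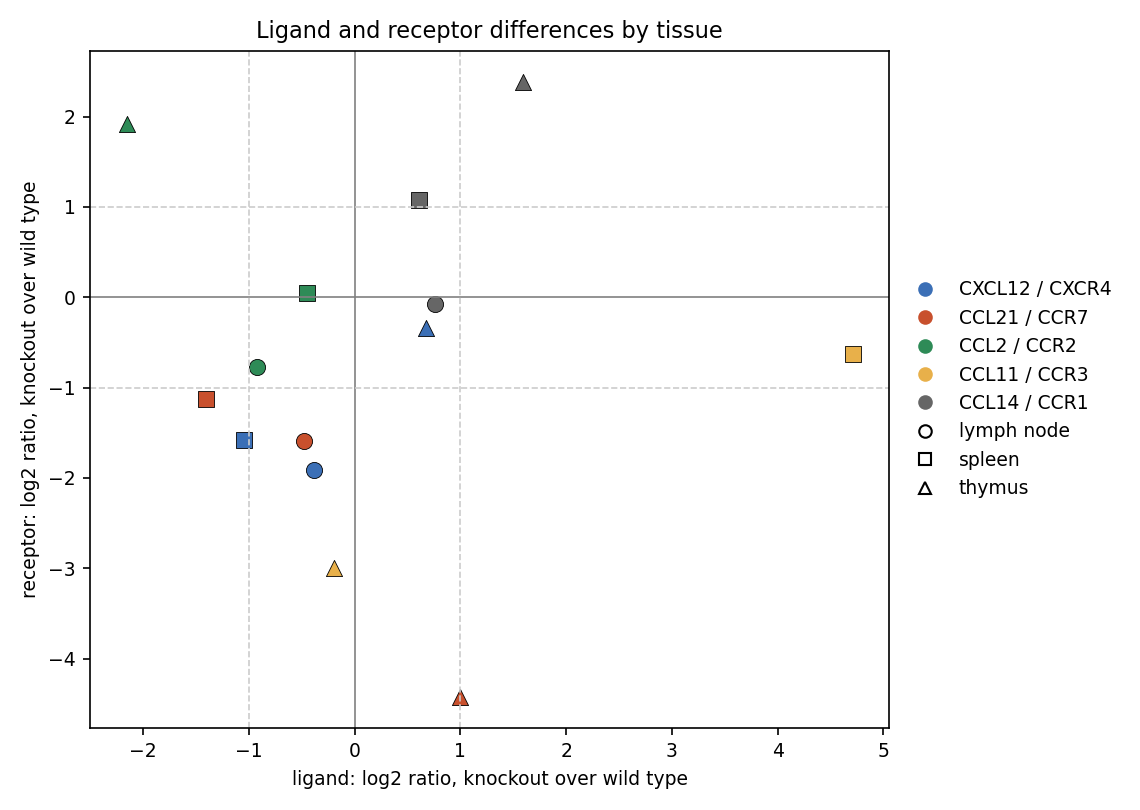
Log2 ratio between knockout and wild type for a ligand (horizontal) and its receptor (vertical), with colour for the pair and shape for the tissue; dashed lines mark -1 and 1. CCL21 and CCR7 in thymus lie at 1.0 and -4.43, and CCL2 and CCR2 in thymus at -2.16 and 1.92.

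Some of the genes lie in clusters, and neighbours did not always share a direction. All 22 matched a RefSeq gene of Sscrofa11.1, on 8 chromosomes, with 9 of them on chromosome 12. CCL1, CCL8, CCL11 and CCL2 lie within 72.0 kb (chromosome 12, 40728014 to 40800013). Within that stretch, the knockout spleen had CCL11 at least 9.99-fold higher while CCL2 was 1.35-fold lower, and the knockout thymus had CCL1 and CCL2 lower with CCL11 at 8 and 7 fragments. CCL4, CCL3L1 and CCL14 lie within 137 kb on the same chromosome (39479190 to 39616050). CCR1, CCR3 and CCR2 lie in that order within 147 kb (chromosome 13, 29227218 to 29374564). In thymus CCR3 was 17.2-fold lower between CCR1, which was 5.72-fold higher, and CCR2, which was 5.75-fold higher.

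Atypical receptors bind chemokines without signalling for migration and remove or move them. The list of these genes, which also holds IL8 and the chemerin receptor CMKLR1 with its ligand RARRES2 (listed at 0 in every library), had 6 measured genes in each tissue (median log2 ratios 0.96, 0.71 and 1.56 in lymph node, spleen and thymus). Higher in the knockout were 3 in lymph node (DARC, CCRL1 and IL8) and 3 in spleen (CCRL1, CCRL2 and IL8). In thymus 4 were higher (DARC, CCBP2, CCRL1 and CMKLR1). Only CMKLR1 in spleen was called lower. Among all measured genes 15.3, 8.88 and 15.2% were higher in lymph node, spleen and thymus, and 10.3, 10 and 10.9% lower. CCRL1 (ACKR4), a scavenger of CCL19, CCL21 and CCL25, was higher in each tissue. It stood at 35.8, 11.1 and 5.68 FPKM in wild-type lymph node, spleen and thymus and at 318, 24.9 and 113.5 FPKM in the knockout. The ratios were 8.94-fold (7.47 to 10.8), 2.26-fold (1.57 to 3.31) and 19.97-fold (13.03 to 32.2). DARC (ACKR1), a chemokine receptor of venules and red cells, was higher in lymph node, at 92.6 and 199.6 FPKM, and in thymus, at 6.34 and 32.0 FPKM, and stood at 84.2 and 86.1 FPKM in spleen. The 4 endothelial markers were all higher in thymus, 2 were higher in lymph node and none was called in spleen. HBB, given above, was also higher in the knockout lymph node and thymus and lower in spleen. CCL19, the other CCR7 ligand and one that CCRL1 removes, stood in wild type and knockout at 2163 and 2589 FPKM in lymph node, 109 and 2097 in spleen, and 283 and 39.1 in thymus. In the knockout spleen CCL19 was thus 20.6-fold higher (15.03 to 29.0) while CCL21 was 2.56-fold lower.

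The 11 chemokine system genes left out by name had 3 of 10 measured higher and 0 lower in lymph node. In spleen 7 of 11 were higher and 3 lower, and in thymus 4 of 11 were higher and 6 lower. Among all measured genes 15.3, 8.88 and 15.2% were higher in lymph node, spleen and thymus, and 10.3, 10 and 10.9% lower. Medians of the left-out genes were 0.34, 1.10 and -1.78, beside -0.19, 0.01 and -0.03 for the 22 genes described here. Counts for the 2 sets were not compared by a test.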

How the data were processed

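RNA was measured in 6 libraries (3 tissues, 2 genotypes, 1 library each). Per the submitters' processing notes, FastQC 0.11.9, Trimmomatic 0.39, STAR 2.7.9a, Cufflinks 2.2.1 and the build Sscrofa11.1 were used; order, settings, annotation, strand setting and treatment of shared fragments are not given there. FPKM values were deposited by the authors per tissue. The deposited count tables hold estimated counts scaled by the authors, 1 factor per library: 97.0 to 99.2% of values above 0 were whole multiples, within 0.02, of the commonest value (0.925 to 1.08). Each was divided by it and rounded to whole fragments. The totals cover listed genes and are not library depths.

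Genotypes were compared within a tissue without a test; tissues are not replicates, so no fit across them was made. Every chemokine system gene described that reached 1 FPKM in any library is given with its values, except 1 receptor that is counted in the totals but not reported here. The genes, lists and pairs were chosen with earlier results of these data known. Cell type lists matched few genes (1 to 9 each). Intervals were checked on simulated counts that held counting error alone, the error they assume. The check used genes with more wild-type fragments than several folds here rest on, so it does not reach those folds. Alternatives were other pseudocounts, expression minimums, thresholds and scalings (edgeR 4.0.16, DESeq2 1.42.0). Python 3.11.15, numpy 2.4.6, pandas 2.3.3, scipy 1.17.1, matplotlib 3.10.9 and R 4.3.3 were used. Gene positions come from RefSeq for Sscrofa11.1.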

Additional observations from a re-analysis of the deposited data

Results flagged for a closer look

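For 3 genes the knockout differed from wild type in opposite directions in 2 tissues, each with a counting interval that excluded equal levels. The difference between tissues was not tested, since each tissue and genotype has 1 library. The log2 ratio of CCR2 in thymus exceeded that in lymph node by 2.70 (1.92 against -0.77). For CXCL12 the thymus exceeded the spleen by 1.72 (0.67 against -1.05). For CXCL14 the thymus exceeded the spleen by 3.01 (2.28 against -0.73).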

How the results depend on the processing

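With 1 library per tissue and genotype, none could be left out. A fit over all 6 libraries with tissue as a term was not run, since the tables were normalised separately and tissues are not replicates. In lymph node 4 genes higher and 3 lower became 2 and 0 with a threshold of 2, and 2 were higher with a minimum of 10 fragments. In spleen 7 higher and 6 lower became 3 and 0 with a threshold of 2, and 3 were lower with a pseudocount of 5 FPKM. In thymus 7 higher became 2 with a threshold of 2. The other counts stayed within 1.5 times. For single genes, 58 log2 ratios were followed under 2 other pseudocounts and 3 other scalings. The sign of a called ratio is no check here. A pseudocount cannot change a sign, and the scalings moved the medians of all measured genes little. Calls lost numbered 10 with a pseudocount of 5 FPKM, 6 with fragments per total, 6 with TMM factors from edgeR and 7 with DESeq2's size factors, and 1 was gained with a pseudocount of 0.1 FPKM (CCL1 in lymph node). Scaling to the total moved the median of all measured thymus genes by 0.12. Depth limits CCL3L1, CCL8, CCL27 and CCR10 most, while CCL28 is only listed at 0. With 1 library per group the spread between animals is unknown.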

Other observations

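Of 13 measured genes that relay chemokine receptor signals, 1 was higher and 2 lower in lymph node (15.3 and 10.3% of all measured genes were), 0 higher and 1 lower in spleen (8.88 and 10%), and 2 higher and 0 lower in thymus (15.2 and 10.9%). Their medians were -0.40, 0.05 and -0.24. RHOH, a lymphocyte GTPase, was lower in the knockout lymph node, at 171 and 43.5 FPKM, as was the exchange factor VAV1, at 285 and 135 FPKM. RGS16, which dampens G-protein signals, was higher there, at 17.0 and 48.8 FPKM. RGS2, another such damper, was lower in spleen, at 277 and 89.97 FPKM, and RGS18 was higher in thymus, at 108 and 240.4 FPKM. JAK2 was called in thymus on 62.6 and 575 FPKM, but it had 615 and 685 fragments, a ratio of 1.09 (0.974 to 1.21).

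Of the proteases and proteoglycans that cut or hold chemokines, 4 of 7 measured were higher and 1 lower in thymus, 1 of 6 higher and 1 lower in lymph node, and 1 of 6 higher in spleen, beside the same shares of all genes. With so few genes, the lymph node and spleen counts are near those shares. DPP4, which trims the end of chemokines such as CXCL12 and CXCL10, stood at 18.6 and 47.3 FPKM in thymus, 2.54-fold higher for the knockout (2.06 to 3.15), at 35.8 and 61.6 FPKM in lymph node and at 15.9 and 13.1 FPKM in spleen. MMP2, a gelatinase that cleaves CXCL12, was 5.59-fold higher in lymph node (5.28 to 5.93) and 3.40-fold higher in thymus (2.97 to 3.91), while in spleen it stood at 180 and 130.1 FPKM, a ratio of 0.725 (0.671 to 0.783). MMP9, the gelatinase of neutrophils and macrophages, went from 190 to 19 fragments in lymph node and from 9 to 63 in spleen, and had 76 and 140 in thymus. MMP12, the macrophage elastase, had 85 and 1 fragments in thymus.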
